A study of Homo sapiens with 2 samples.

Results

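The Iroquois homeobox genes lie in the human genome as 2 clusters, and TET1-V5 peaks were examined across both. The IRXA region, chromosome 5 from 1.8 to 3.7 Mb on hg19, holds IRX4, IRX2 and IRX1, and the IRXB region, chromosome 16 from 54.2 to 55.45 Mb, holds IRX3, IRX5 and IRX6. Every deposited peak that overlapped a region by at least 1 bp was taken, which gave 53 of the 46207 peaks on the 24 human chromosomes, 40 in IRXA and 13 in IRXB. A peak was placed at a gene when it overlapped the gene's span or the 20 kb on either side of it. By that rule 19 peaks lay at the 6 genes, 21 in the intervals between genes and 13 at the outer edges of the regions. Gene spans were known to the nearest 1 kb only.

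The cells were cardiac progenitors on day 7 of differentiation from H1, a human embryonic stem cell line in wide use. In the ChIP group (1 library) the endogenous TET1 protein carried a V5 tag and chromatin was precipitated through that tag, while the input group (1 library) was unprecipitated DNA of the same cells. Both groups had been given the WNT activator CHIR99021 (6 µM, withdrawn on day 2) and the WNT inhibitor IWP2 (5 µM, from day 3 to day 5), and the labels enter both as wild type although the design text names the tagged line. The peak list is the ChIP library set against input, so a comparison between groups is already inside every peak. No further test across samples could be made, no value has a replicate behind it, the read depth is unknown, and V5 antibody signal from other proteins cannot be told apart from TET1. The immunoprecipitation conditions are not stated in the labels.

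Iroquois proteins are homeodomain transcription factors of the TALE class, which pattern the nervous system, limb and heart. The 2 clusters arose by duplication of an ancestral cluster of 3 genes, so that IRX1 pairs with IRX3, IRX2 with IRX5 and IRX4 with IRX6. In the heart IRX4 marks the ventricle, where in chick and mouse it keeps atrial genes low. Mouse Irx3 is needed for fast conduction through the His-Purkinje system, and mouse Irx5 for the gradient of repolarisation across the ventricular wall. Mouse Irx1 and Irx2 are expressed in the ventricular septum, and mouse Irx6 is known from bipolar cells of the retina. TET1 oxidises 5-methylcytosine, and its CXXC domain binds DNA rich in CpG.

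The highest peak of each of the 6 genes overlapped the end of the gene span where its transcription starts. Promoters are shown because CpG is the sequence feature that the CXXC domain recognises. They are those of IRX1, IRX2 and IRX4 because only these 3 genes were matched in the promoter table. The RefSeq table (GRCh38.p14) held 5 promoter entries for these 3 genes, each running from 250 bases before to 50 bases after a start. The middle IRX4 entry (chr5:1886896-1887195) is not printed, and it overlaps the outer one. No promoter sequence was used for IRX3, IRX5 or IRX6. CpG dinucleotides are in capitals, and all sequences run 5′ to 3′.
IRX1 (chr5:3595582-3595881, plus strand): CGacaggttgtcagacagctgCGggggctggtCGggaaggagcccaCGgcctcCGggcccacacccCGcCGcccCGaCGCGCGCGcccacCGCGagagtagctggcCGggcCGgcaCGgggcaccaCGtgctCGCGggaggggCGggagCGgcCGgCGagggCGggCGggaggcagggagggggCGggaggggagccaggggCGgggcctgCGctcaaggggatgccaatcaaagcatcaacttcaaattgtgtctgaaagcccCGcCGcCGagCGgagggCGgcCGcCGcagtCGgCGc
IRX2 (chr5:2751628-2751927, minus strand): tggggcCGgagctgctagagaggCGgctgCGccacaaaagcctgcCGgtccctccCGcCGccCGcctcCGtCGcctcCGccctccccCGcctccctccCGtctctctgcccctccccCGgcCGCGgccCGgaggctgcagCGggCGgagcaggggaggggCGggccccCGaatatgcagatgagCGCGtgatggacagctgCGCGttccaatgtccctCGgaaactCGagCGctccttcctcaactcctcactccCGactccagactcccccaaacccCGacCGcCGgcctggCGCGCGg
IRX4, inner start (chr5:1882876-1883175, minus strand): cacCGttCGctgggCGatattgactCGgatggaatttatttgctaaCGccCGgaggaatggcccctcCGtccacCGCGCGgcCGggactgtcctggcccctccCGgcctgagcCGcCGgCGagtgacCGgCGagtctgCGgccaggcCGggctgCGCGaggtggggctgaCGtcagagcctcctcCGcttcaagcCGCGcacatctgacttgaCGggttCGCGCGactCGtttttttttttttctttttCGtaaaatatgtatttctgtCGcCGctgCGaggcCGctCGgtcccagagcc
IRX4, outer start (chr5:1887130-1887429, minus strand): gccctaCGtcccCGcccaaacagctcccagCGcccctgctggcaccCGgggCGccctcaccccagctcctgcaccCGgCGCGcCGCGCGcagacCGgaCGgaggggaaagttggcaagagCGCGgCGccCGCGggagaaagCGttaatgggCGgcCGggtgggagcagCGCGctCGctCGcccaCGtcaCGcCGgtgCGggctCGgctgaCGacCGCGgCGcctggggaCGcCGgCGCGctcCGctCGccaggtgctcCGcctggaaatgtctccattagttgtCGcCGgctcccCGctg

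All 5 entries were CpG-rich. The IRX1 stretch held 38 CpG in 300 bases with 76% G or C, and the IRX2 stretch held 34 CpG with 73.3%. The 3 IRX4 entries held 36, 47 and 44 CpG, and those with 47 and 44 share part of their sequence. Over all 35116 entries of the table the median was 14 CpG (quartiles 4 and 28), and 96.0% of entries held at least 1 CpG. The IRX2 stretch had more CpG than 84.4% of entries and the richest IRX4 stretch, whose start lies 4.02 kb upstream of the inner one, more than 97.6%. The ratio of observed CpG to that given by base composition was 0.897 for IRX1 and 0.875 for IRX2, against a median of 0.579 over the table. The inner IRX4 entry stood highest, at 1.21, above 99.5% of entries, with a G and C content of 63%, the lowest of the 5. These letters describe the reference sequence and not whether it was methylated or bound.

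**Figure D1:**
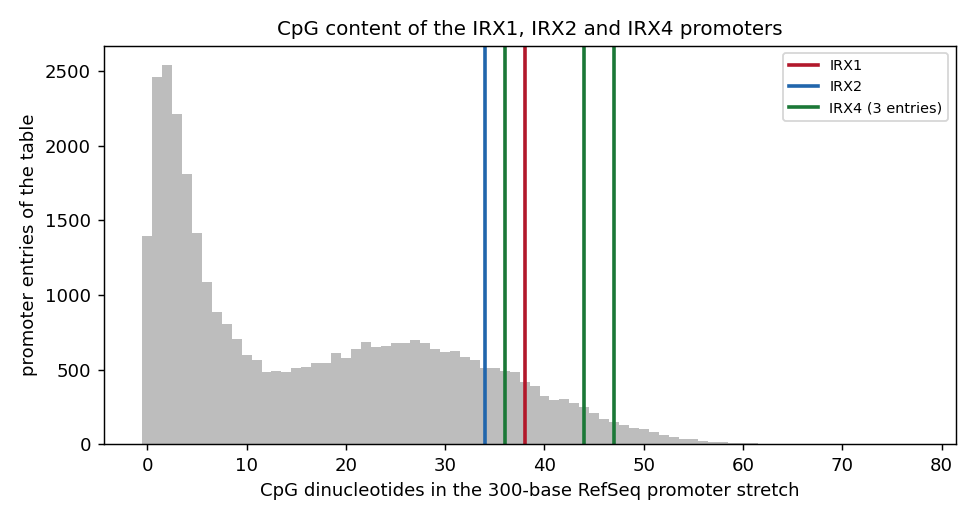
CpG dinucleotides per 300-base promoter stretch (x axis) against the number of RefSeq promoter entries (y axis, grey bars, 35116 entries). Coloured lines mark the 5 entries of IRX1, IRX2 and IRX4, which run from 34 to 47 CpG, to the right of the table's median of 14.

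Each of the 6 genes had a peak on its span, and for 5 of them the highest such peak was broad and high. How many of all genes have such a peak was not computed, so no share over all genes stands beside these counts. The peaks named here are each the highest on their span, whereas the values of the list are over single peaks. Each peak carries a score given by the authors, from 50 upwards, and the class at 3100 or more is treated as a tied ceiling. The highest peaks at IRX2, IRX3 and IRX5 stood at exactly 3100, those at IRX1 and IRX4 at 2146.45 and 2112.06, and that at IRX6 at 253.6. Over the whole list the median score was 172, 4.69% of peaks were at the ceiling and 18.6% scored 1000 or more. The highest peaks at IRX1 and IRX4 exceeded 91.6% and 91.4% of the list, and the IRX6 peak 58.8%. The same peaks had widths of 10637 bp at IRX3, 9798 bp at IRX1, 7711 bp at IRX4, 6472 bp at IRX5, 6093 bp at IRX2 and 2273 bp at IRX6. The median width of the list was 1531 bp, and the IRX3 peak was wider than 99.8% of it. Score and width come from 1 peak call and are not independent of each other.

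**Figure D2:**
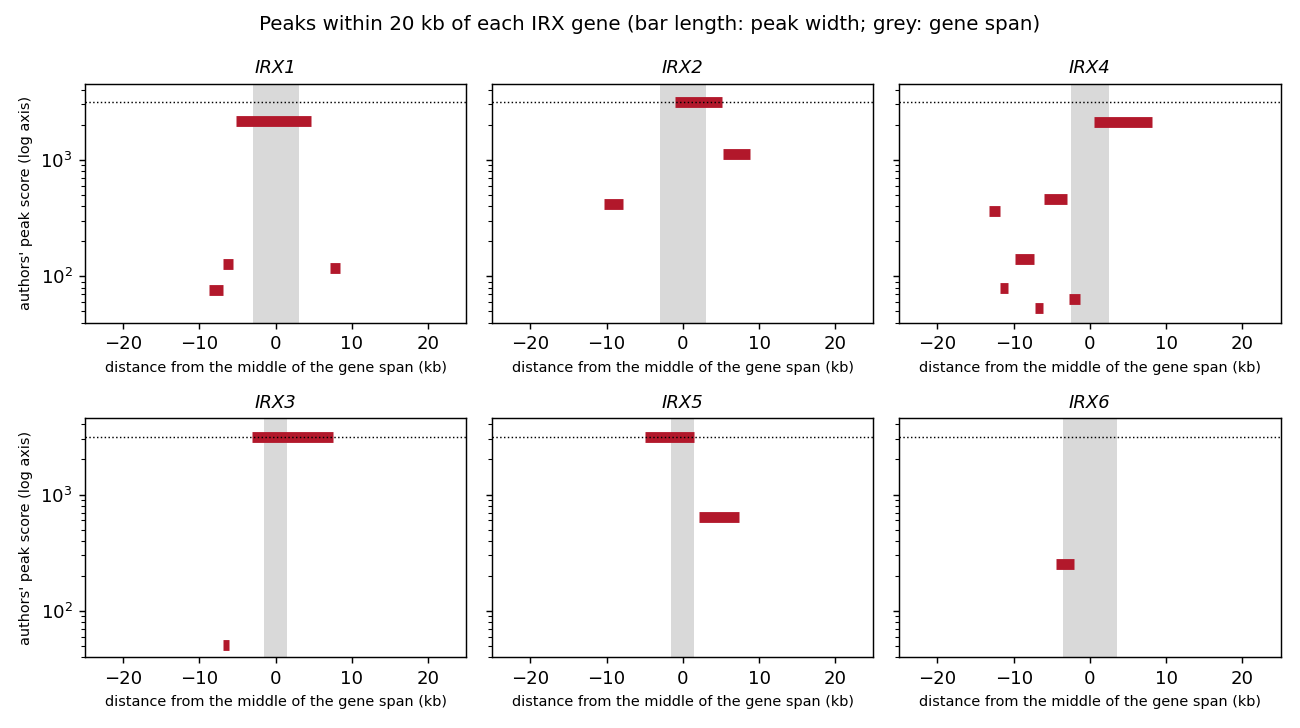
Peaks within 20 kb of each gene, with distance from the middle of the gene span on the x axis (kb, in the direction of rising coordinates), the authors' score on the y axis (log), bar length as peak width, the gene span in grey and the score ceiling of 3100 dotted. A bar touches the span of every gene, at scores from 2112.06 to 3100 for 5 genes and at 253.6 for IRX6.

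In the IRXA cluster IRX1 was the gene whose span was covered whole. Its highest peak, at chr5:3593831-3603628, spanned all 6 kb of the gene and ran 2.17 kb past the lower end, where transcription starts, and 1.63 kb past the upper end. A further 3 peaks with scores of 76.29, 128.1 and 118.04 flanked it, and the nearest of them lay 0.389 kb away. All 3 were below the median score of the list.

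At IRX2, which is transcribed towards lower coordinates, the ceiling peak at chr5:2747991-2754083 covered 4.01 of the 6 kb and extended 2.08 kb past the starting end. Only 0.249 kb beyond it followed a peak of 3473 bp with a score of 1118.47, on the side where the table lists IRX2-DT, a divergent long non-coding RNA. A peak of 2531 bp with a score of 418.49 lay 4.79 kb past the other end of the span. All 3 peaks within 20 kb of IRX2 thus scored above the median of the list.

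IRX4 had the most peaks, 7 within 20 kb, and they covered 40.5% of that window. Its highest peak, at chr5:1880988-1888698, covered 2.01 kb of the span at the starting end and continued 5.70 kb upstream. The outer IRX4 starts lie 4.02 and 4.25 kb upstream of the inner one in the RefSeq table, on the other build, a distance shorter than that extension. The other 6 peaks lay past the 3′ end of the gene or on it, from 1867227 to 1879170, and had scores from 53.57 to 457.34. Among them a peak of 1436 bp with a score of 63.55 touched the end of the span. The next peak beyond the window lay 20.2 kb from the span and scored 51.4, and with 50 kb flanks the number at IRX4 became 15.

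In the IRXB cluster the peaks at genes were fewer, 5 against the 14 of IRXA, but 2 of the 5 were at the ceiling. IRX3, which is transcribed towards lower coordinates, lay whole under the peak at chr16:54315406-54326042, which ran 6.04 kb past the starting end and 1.59 kb past the other. The only other peak within 20 kb of IRX3 was 791 bp wide with a score of 51.62, close to the smallest score written.

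IRX5, which is transcribed towards higher coordinates, had its ceiling peak at chr16:54961492-54967963. This peak covered 2.96 of the 3 kb of the span and extended 3.51 kb past the starting end, the side on which the table lists the long non-coding RNA CRNDE. After a gap of 0.603 kb came a peak of 5329 bp with a score of 645.67, past the 3′ end. Both IRX5 peaks were wider than 5 kb, and together they covered 27.4% of the window.

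At IRX6 the signal was narrower and lower than at the other 5 genes. Its peak at chr16:55357092-55359364 covered 1.36 of 7 kb, at the end where transcription starts, and reached 0.908 kb past it, a distance within the rounding of the gene position. It was the only peak within 20 kb, and 4.84% of the window was covered, against 26.3% to 40.5% at the other 5 genes. With 50 kb flanks no further peak was added at IRX6, IRX5, IRX3, IRX2 or IRX1.

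Set side by side, the paralogue pairs differed in how alike they were. IRX1 and IRX3 both lay whole under peaks of about the same width, 9798 and 10637 bp, with scores of 2146.45 and 3100. IRX2 and IRX5 both had a ceiling peak of about the same width, 6093 and 6472 bp, that ran past the starting end, and each had a neighbour within 1 kb. IRX4 and IRX6 had 7 peaks and 1 peak, with highest scores of 2112.06 and 253.6 and 18.2 and 2.27 kb covered within 20 kb. These likenesses were not particular to the pairs. The highest IRX5 peak covered 98.8% of its span, and IRX3 was at the ceiling like IRX2 and IRX5. IRX1 too had a neighbour, 0.389 kb away. The highest peak of every gene ran past the starting end, though at IRX6 only by 0.908 kb, within the rounding of the gene position. The close neighbour lay past the starting end at IRX2 but past the 3′ end at IRX5. With 1 library all of these are values without a test.

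**Figure D3:**
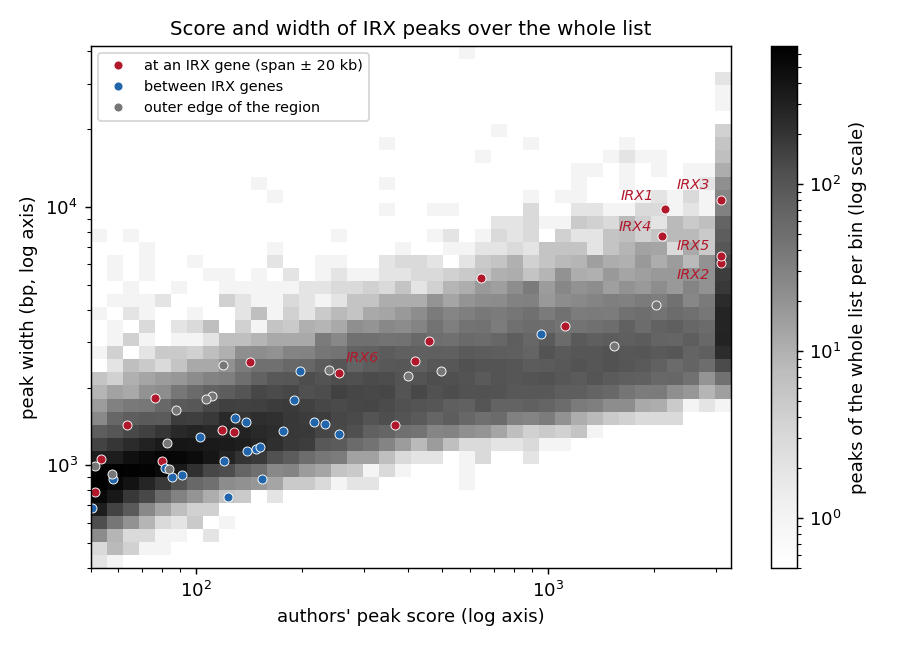
Authors' score (x axis, log) and width in bp (y axis, log) of the 53 IRX peaks as coloured points over the whole list as grey bins of peak number. The highest peaks of IRX1 to IRX5 lie in the upper right, at widths from 6093 to 10637 bp, IRX6 lies lower at 2273 bp, and no peak between genes passes a score of 953.19.

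The highest and widest peaks of the regions were the lead peaks of 5 genes, and weak peaks were found at genes as well as between them. Of the 19 peaks at genes, 3 were at the ceiling (15.8%, exact binomial 95% interval 3.38% to 39.6%), an interval that included the 4.69% of the list. Of the 21 between genes 0 were at the ceiling (exact binomial upper bound 16.1%). At genes 6 peaks were 5 kb or wider (31.6%, 12.6% to 56.6%), against 3.2% of the list. Between genes 0 were that wide, with an upper bound of 16.1%, above the 3.2% of the list. Scores of 1000 or more were found in 6 of the 19 peaks at genes (31.6%, 12.6% to 56.6%), an interval that included the 18.6% of the list. Between genes 0 scored that high (upper bound 16.1%). The median score was 366.52 at genes and 139.42 between genes, and the median width was 2508 and 1180 bp. At IRX4 and IRX1 the median scores were 141.56 and 123.07, next to that of the intervals. Scores below 100 made up 26.3% of peaks at genes (9.15% to 51.2%) and 23.8% between genes (8.22% to 47.2%), so weak peaks were not seen to be rarer at genes. Over all 53 peaks the share at the ceiling was 5.66% (1.18% to 15.7%) against 4.69% of the list, and the interval included the share of the list. Scores below 100 were found in 28.3% of the 53 (16.8% to 42.3%), against 32.9% of the list. Intervals here and elsewhere reflect counting error alone and assume independent peaks, an assumption that close neighbours break.

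Peaks were denser at the genes than in the intervals between them, and the edge below IRX4 was as dense as the gene windows within counting error. Windows of the same kind around other genes were not counted, so whether such a density is particular to IRX genes was not tested. In IRXA there were 102 peaks per Mb at genes (exact Poisson 95% interval 55.9 to 171) and 11.1 between genes (6.56 to 17.5), a ratio of 9.24 (4.25 to 19.7). In IRXB there were 37.6 at genes (12.2 to 87.7) and 3.14 between genes (0.648 to 9.18), a ratio of 11.97 (2.33 to 77.1). The share of sequence under peaks was 32.6% at genes and 1.5% between genes in IRXA, and 19.2% and 0.356% in IRXB. The 58 kb edge stretch below IRX4, which is outside the gene windows, had 138 peaks per Mb (59.5 to 272), 27.7% of it under peaks and a median score of 259.6, so high density in IRXA was not particular to the gene windows. The edge below IRX3 had 51.5 peaks per Mb (16.7 to 120). The intervals of both clusters together held 8.13 peaks per Mb, 0.429 times the 19.0 of the rest of the list (0.266 to 0.656). That comparison is unlike, since the IRX gene windows were cut out of the intervals while the rest of the list keeps its genes. The clusters also differed. The IRXA intervals had 0.831 times the density of the rest of chromosome 5 (0.491 to 1.32, a range that included 1). The IRXB intervals had 0.0885 times that of the rest of chromosome 16 (0.0182 to 0.259). No test stands behind these ratios.

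**Figure D4:**
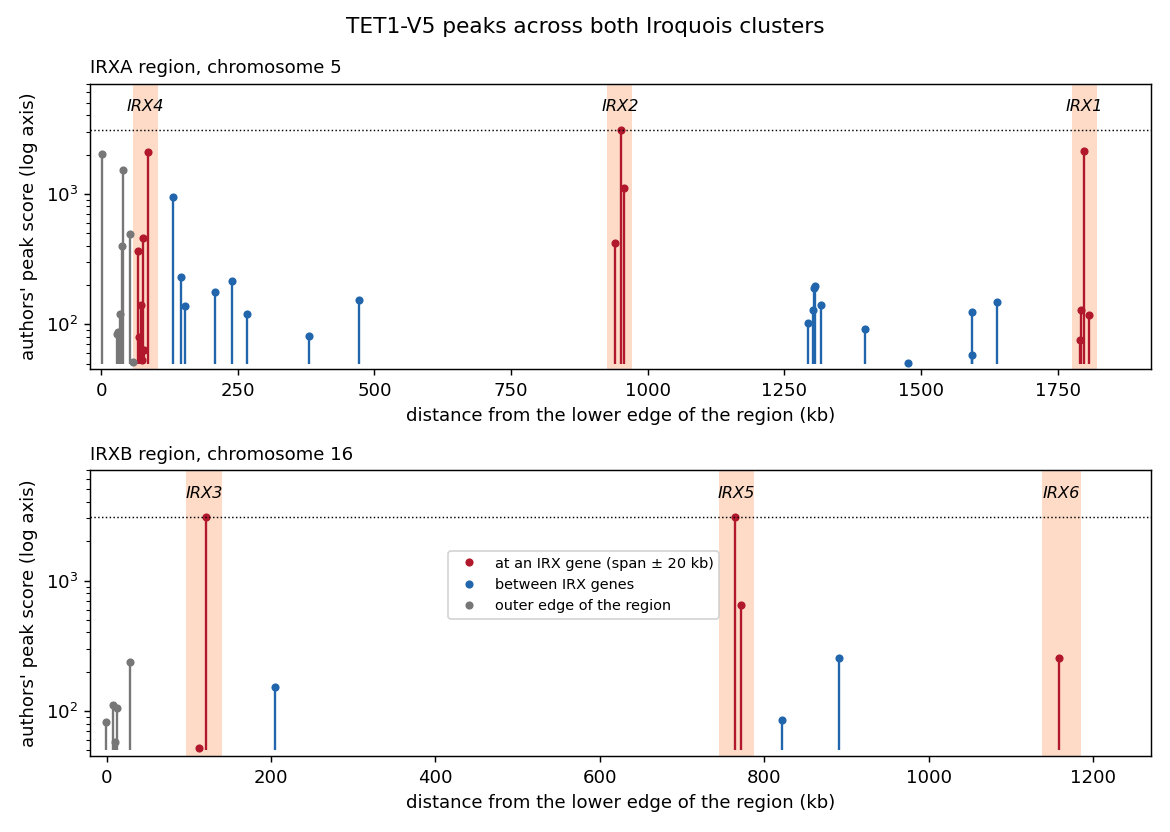
Peaks across the IRXA region (top) and the IRXB region (bottom), with distance from the lower edge of the region on the x axis (kb) and the authors' score on the y axis (log), where each stem is 1 peak and shaded bands are gene spans with 20 kb on either side. The tallest stems stand in the bands of 5 genes, and long stretches between bands hold no peak.

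The intervals were not filled evenly. Between IRX4 and IRX2, which lie 863 kb apart, 8 peaks were found, all on the IRX4 side and none farther than 388 kb from its span. The highest of these, at chr5:1929193-1932416, had a score of 953.19 and a width of 3224 bp and lay 46.2 kb upstream of IRX4, and the next highest scored 231.63 and 216.51. From 2272165 to 2738677 no peak was called, a stretch of 467 kb that ended at the outermost peak of IRX2, and the next longest stretches in this interval were 113 and 90.4 kb.

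Between IRX2 and IRX1, which lie 844 kb apart, 10 peaks were found with scores from 50.39 to 197.51. The 3 highest, 197.51, 189.78 and 147.8, lay around the list's median of 172. A group of 5 of the 10 lay from 3092001 to 3117326, with scores of 102.28, 129.14, 189.78, 197.51 and 139.42. This group followed a peak-free stretch of 334 kb that began at the outer peak of IRX2, and a stretch of 150 kb without a peak lay before the outermost peak of IRX1. The next longest stretch was 115 kb.

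The IRXB intervals were emptier. Between IRX3 and IRX5, 645 kb apart, a single peak of 1180 bp with a score of 151.63 lay 84.2 kb from IRX3, and the 556 kb from there to the IRX5 peak held none. Between IRX5 and IRX6, 390 kb apart, there were 2 peaks, with scores of 85.21 and 254.86, at 52.8 and 122 kb from IRX5, followed by 266 kb without a peak up to the peak of IRX6. The peak of 254.86 was about as high as that of IRX6, at 253.6. The other peak-free stretches here were 68.6 and 46.9 kb, and between IRX3 and IRX5 the stretch on the IRX3 side was 78.2 kb.

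In all, 5 of the 53 peak-free stretches that touched the regions were 250 kb or longer. In the list it was 2345 of the 46183 stretches between neighbouring peaks (5.08%). No interval was computed for the 5 of 53, so a difference from the list is not shown. The 467 kb stretch next to IRX2 was longer than 97.8% of the stretches of the list and the 556 kb stretch next to IRX5 longer than 98.3%. Another, of 623 kb, began at the last peak of IRX1 and ran out of the region. Whether reads map to these stretches, and whether they hold repeated sequence, was not tested.

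The outer edges held 13 peaks, of which 8 were below IRX4, 5 below IRX3 and 0 above IRX1 or IRX6. The 8 below IRX4 had scores from 51.4 to 2028.55. The highest of them crossed the lower edge of the region, at chr5:1798431-1802589 and 75.4 kb from IRX4, and a peak with a score of 1536.54 lay 36.0 kb from the gene. The 5 below IRX3 had scores from 57.44 to 237.49, the highest of them 87.5 kb from the gene. Which genes other than IRX members these edge peaks belong to was not examined.

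Against the rest of the list, neither region as a whole was rich in peaks. IRXA had 21.1 peaks per Mb (15.0 to 28.7) against 19.0, a ratio of 1.11 (0.793 to 1.51), and IRXB had 10.4 (5.54 to 17.8), a ratio of 0.549 (0.292 to 0.938). The direction for IRXA turned with the comparison. It was 1.58 (1.13 to 2.16) over the rest of chromosome 5, with 13.3 peaks per Mb, and 0.378 (0.261 to 0.536) over the other sequence in the terminal 5 Mb of 5p, with 55.7. IRXB had 0.293 times (0.156 to 0.502) the density of the rest of chromosome 16, which had 35.5 peaks per Mb. Peak number varies widely along the genome, and of 1487 consecutive tiles of 1.9 Mb that held a peak, 337 (22.7%) had at least the 40 peaks of IRXA, with a median of 16. Of 2213 tiles of 1.25 Mb, 970 (43.8%) had at least the 13 peaks of IRXB, with a median of 10. IRXB thus lay below the mean densities but above the median tile. At least 2 ceiling peaks, as in IRXB, were present in 22.8% of the shorter tiles.

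**Figure D5:**
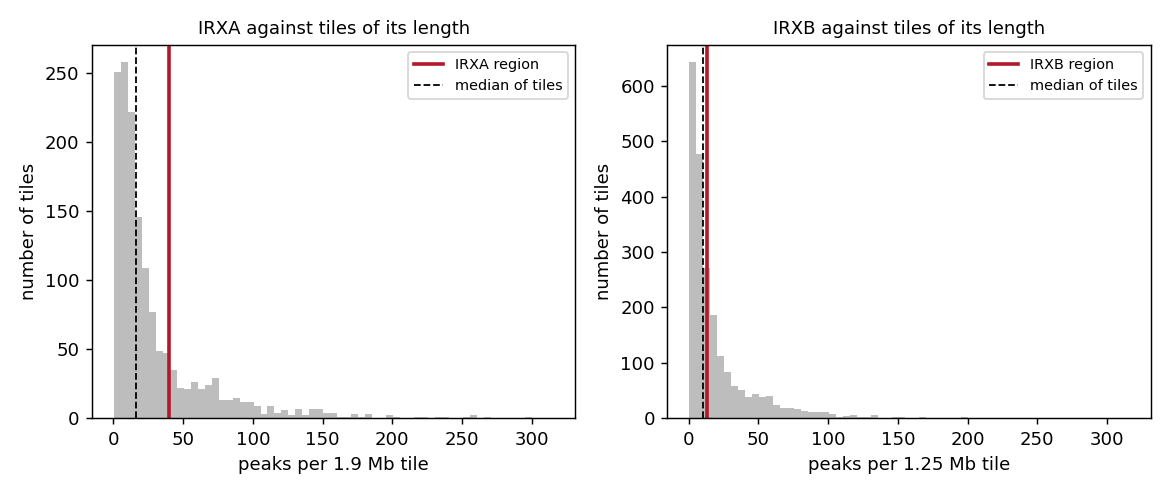
Peaks per tile (x axis) against number of tiles (y axis) for tiles of 1.9 Mb (left, the length of IRXA) and 1.25 Mb (right, the length of IRXB), with the region as a red line and the median of the tiles dashed. IRXA, at 40 peaks, lies to the right of the median of 16 and of the upper quartile of 36. IRXB, at 13, lies between the median of 10 and the upper quartile of 24.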

How the data were processed

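The deposited data used here are 1 peak list of 5 columns without a header. Per the submitters' processing notes, alignment used BWA 0.7.17 and hg19. Peaks were called with MACS, per the peak names in the deposited file, and the MACS version is not given in the sources used here. Scores of peaks were deposited by the authors with no stated unit and are used only to describe and rank peaks within the list.

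Regions and gene spans were given as hg19 positions, spans to the nearest 1 kb, and no hg19 annotation was used. Members and gene groups were chosen with earlier results of these data known. Peak starts were counted from 1. All 6 genes are named, with every peak at a gene; of each interval the highest peaks and the longest peak-free stretches are named. Peaks per Mb of the list used the sequence between the outermost peaks of each chromosome, without peak-free intervals over 1 Mb. Intervals are exact Poisson, binomial and conditional binomial at 95%. Consecutive tiles started at the first peak of each chromosome, and tiles without a peak were left out. CpG was counted in RefSeq promoter stretches (GRCh38.p14), which were matched by symbol for 3 of 6 genes. Strand is from that table for IRX1, IRX2 and IRX4 and from general knowledge for the others. Counting was tested on simulated peaks. Python 3.11.15, pandas 2.3.3, numpy 2.4.6, scipy 1.17.1 and matplotlib 3.10.9 were used. Alternatives were other flanks, score thresholds, joined peaks, midpoints and other comparison stretches.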

Additional observations from a re-analysis of the deposited data

How the results depend on the processing

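In all, 20 results were computed under 105 alternatives, and 86 of these values lay within 1.5 times the reported count, within the reported counting interval or, for CpG ratios, within 10%, while 19 moved. Wide counting intervals make that rule lenient. The density at IRXB genes over intervals, reported as 11.97 (2.33 to 77.1), was 39.3 with 5 kb flanks and did not count as moved. Thresholds lower counts by construction. In the upper 50% of the list by score, IRXA held 17 peaks, IRXB 6 and the 6 genes 11, 26.1% were 5 kb or wider and the density of IRXA over the rest of the list was 0.786. Joining peaks up to 1 kb apart left 11 at the genes and put that density ratio at 0.882. Between the outermost genes with 20 kb, IRXB held 8 peaks. With 5 kb flanks the density at IRXA genes over intervals was 23.9, and the lowest ratio of either cluster was 4.45, in IRXB with 50 kb flanks, where its counting interval (0.865 to 28.6) included 1 and the reported one did not. The density of IRXA was 1.58 over the rest of its chromosome and 0.378 over the other terminal 5p sequence, so its direction depends on that choice. The density ratio of IRXB stayed below 1 under every alternative run, but each of these divides by a mean density. Its 13 peaks were above the median of 10 of the peak-bearing tiles of its length. At single genes 9 of 48 counts moved, the widest at IRX4, which had from 3 to 15 peaks. No paired analysis was possible because the ChIP and the input have 1 library each. Without read counts, weak peaks near a score of 50 cannot be graded by depth.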

Other observations

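Peaks were also chained when up to 20 kb apart, a measure chosen after the peaks had been seen. The chain that holds the highest IRX4 peak comprised 14 peaks over 60.9 kb, from 1827805 to 1888698 on chromosome 5, with 52.1% of the stretch under peaks. Of the 19310 chains of the list, 415 had at least as many peaks. The chains at the other genes were shorter, with 4 peaks over 17.2 kb at IRX1, 3 over 19.1 kb at IRX2, 2 over 14.4 kb at IRX3, 2 over 12.4 kb at IRX5 and 1 peak at IRX6. The longest chain was therefore the one that holds the highest IRX4 peak. Part of it lay in the edge stretch below the IRX4 window, where it was not examined which genes the peaks belong to. The highest IRX4 peak itself was below the ceiling that IRX2, IRX3 and IRX5 reached.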
